A study of Homo sapiens with 58 samples.

Results

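Of 151457 putative regulatory elements (REs, reproducible regions of open chromatin) counted by ATAC-seq in human cranial neural crest cells (CNCCs), 708 (0.467%) were lower in accessibility 3 h after SOX9 depletion and were not lower than in untreated cells in a separate 48 h experiment. These REs were chosen on their measured values. Counts were scaled to 1e+06 counts per library (CPM) and transformed as log2(CPM + 0.5). A member had a mean of at least 2 CPM in the 2 vehicle libraries of SOX9-tagged cells, a difference between 3 h and vehicle of -0.4 or less in each of 2 differentiations of tagged cells (R4 and R5), a mean difference above -0.2 in wild-type (WT) cells over the same 3 h, and a mean difference between 500 and 0 nM above -0.15 over 7 tagged replicates at 48 h. Everything these thresholds used is given as a description, without a test. The vehicle threshold alone left 95238 REs, here called eligible, and the vehicle, 3 h and WT thresholds together left 8026. Of those 8026, 78.7% (6313 REs) were also lower by 0.4 or more at 48 h and are called sustained lost REs below, 8.82% were the 708 members, and 1005 lay between the 48 h thresholds.

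SOX9 is a transcription factor of the SOX family, which binds a short core in the minor groove through its HMG domain and often acts as a dimer on a facing pair of cores. In the cranial neural crest, the embryonic cell population that forms most of the facial skeleton, it acts at distal enhancers and later directs chondrocyte formation. ATAC-seq uses a transposase that cuts accessible DNA, so that the number of fragments over an RE reads how open it is.

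All cells were derived from H9, a human embryonic stem cell line, and were assayed as passaged CNCCs. Tagged cells carried FKBP12-F36V, mNeonGreen and V5 fused to both SOX9 alleles (clones S9CC13 and S9CC47), so that the small molecule dTAGV-1 directs SOX9 to degradation, and WT cells carried no tag. In the time course, tagged and WT cells of R4 and R5 received vehicle, 500 nM dTAGV-1 for 24 h, or 500 nM for the last 3 h (n = 2 per group). In the 48 h experiment, 7 tagged replicates (4 of clone S9CC13 and 3 of clone S9CC47) received 0, 0.5, 1.6, 5, 16 or 500 nM, for which the labels give SOX9 at 100, 77.9, 51.7, 25.8, 8.14 and 0.95% of the untreated level, and 2 WT replicates received 0 or 500 nM. The clone of the tagged R5 time course is named differently in the sample labels and the count table and was not used. In differentiation R14, the concentration labels of the 0 and 0.5 nM samples are exchanged against their titles, and the titles were followed. The clones are single edited lines of 1 parental stem cell line.

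The 58 libraries held 22.9 to 81 M (1e+06) counts, with a median of 45.6 M. Promoter REs of 9 of 10 cranial neural crest genes were present (SOX9 had none assigned), with a median over libraries of the highest promoter RE of 18.5 (TFAP2A) to 86.8 CPM (ALX1). The promoter RE of POU5F1, which maintains pluripotency, had a median of 1.09 CPM and that of SOX10, of the glial and melanocyte lineages, 1.40 CPM, while LIN28B (19.2 CPM) and PAX6 (16 CPM) had open promoter REs. Counts come from a population of cells, so fewer cells with an open RE and less opening per cell cannot be told apart. At 5 nM the library of S9CC47_R6 stood apart, since its deviations from the group mean correlated with those of its own replicate at 0.5 nM at 0.067, against up to 0.96 for the others.

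The label of these REs as recovered by 48 h held for the difference to untreated cells and not for the level. Over the 708 members, the median CPM in the tagged time course was 3.34 in R4 and 4.87 in R5 with vehicle, and 1.81 and 2.98 after 3 h. At 48 h it lay between 2.18 and 3.04 in the 7 libraries at 500 nM and between 1.84 and 3.01 in the 7 libraries at 0 nM. All 48 h libraries at 0 and 500 nM were thus below both vehicle libraries of the time course, with and without SOX9 depletion. For single members, the mean log2(CPM + 0.5) at 0 nM and 48 h was a median of 0.65 below that with vehicle in the time course (-0.65), lower for 99% of members, and the eligible REs had a median of -0.18. The sustained lost REs had a median of -0.60 in the same comparison. In WT cells the same comparison gave -0.48 for the members and -0.04 for the eligible REs. Tagged vehicle libraries were used to choose the members, and the time course and the 48 h experiment used different libraries, so selection, experiment and time in culture cannot be told apart. The plot of member levels by library shows both experiments on 1 scale.

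**Figure D1:**
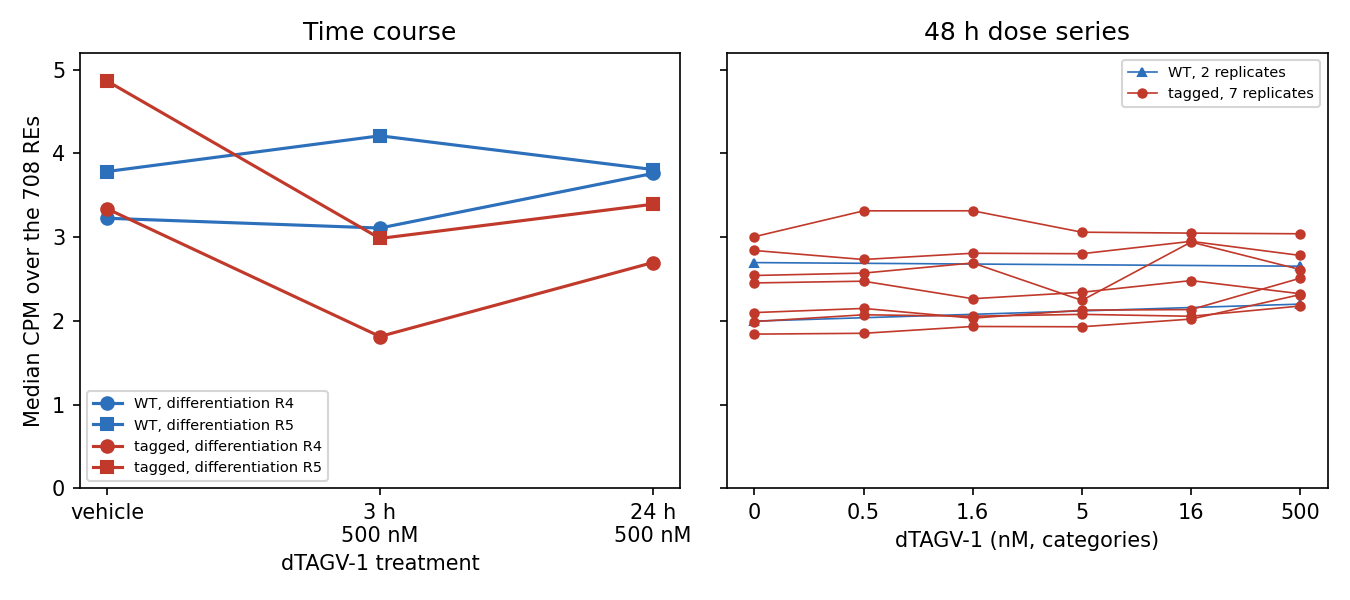
Median CPM over the 708 REs in every library; left, the time course by treatment with 1 line per genotype and differentiation, right, the 48 h experiment by dTAGV-1 concentration (nM, spaced as categories) with 1 line per replicate. Tagged libraries fall from 3.34 and 4.87 CPM with vehicle to 1.81 and 2.98 CPM at 3 h, and the tagged 48 h libraries at 0 nM lie between 1.84 and 3.01 CPM.

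Sequence windows of REs that the results below turn on are printed here, to show the SOX core in its context. Each is 61 bases of the plus strand of hg38 centred on the match nearest the middle of the RE (for a pair, on the pair; for the last 3, on the AP-1 site), with SOX cores (ACAAAG or ACAATG, or CTTTGT or CATTGT where the core is on the minus strand) and AP-1 sites (TGACTCA or TGAGTCA) in capitals. The first 4 are among the 8 members with the lowest 3 h difference, each with 1 core in the window.
MAP3K4, chr6:160961048-160961108: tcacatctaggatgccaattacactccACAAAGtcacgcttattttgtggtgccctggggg
ZIC1, chr3:147962846-147962906: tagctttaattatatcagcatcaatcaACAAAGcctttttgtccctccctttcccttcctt
SEMA5A, chr5:9454272-9454332: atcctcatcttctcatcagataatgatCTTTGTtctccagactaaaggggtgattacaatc
SLC5A8, chr12:101052186-101052246: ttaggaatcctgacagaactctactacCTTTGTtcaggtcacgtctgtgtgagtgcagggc

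The next is a member that holds a facing pair of SOX cores (a core, 3 to 5 bp and the reverse complement of a core), and the 2 after it are sustained lost REs with such a pair, shown for contrast.
ATP11B, chr3:182440444-182440504: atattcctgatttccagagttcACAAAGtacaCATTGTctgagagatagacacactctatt
PLEKHB1 (sustained), chr11:73652530-73652590: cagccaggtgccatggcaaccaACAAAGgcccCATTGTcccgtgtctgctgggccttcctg
SLC39A11 (sustained), chr17:72623163-72623223: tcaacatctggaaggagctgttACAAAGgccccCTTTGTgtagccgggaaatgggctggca

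TLE1 is the member with the smallest p-value among those higher at 16 nM, and SSBP2 the member with the smallest p-value among those lower at 16 nM. The last 3 hold a SOX core within 40 bp of an AP-1 site and were picked for the lowest 3 h difference among such members, after their values were seen.
TLE1, chr9:81558300-81558360: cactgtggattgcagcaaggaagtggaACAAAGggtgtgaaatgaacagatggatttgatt
SSBP2, chr5:81626597-81626657: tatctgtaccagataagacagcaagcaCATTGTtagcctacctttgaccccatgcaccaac
CDC14C, chr7:48839262-48839322: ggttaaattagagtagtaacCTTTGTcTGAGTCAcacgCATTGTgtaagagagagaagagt
PPP1R12A, chr12:79844883-79844943: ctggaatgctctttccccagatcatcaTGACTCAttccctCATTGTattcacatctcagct
ADGRL2, chr1:80918352-80918412: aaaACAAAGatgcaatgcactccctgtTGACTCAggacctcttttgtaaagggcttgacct

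The loss at 3 h, which chose the members, was moderate. The median difference between 3 h and vehicle was -0.64 in R4 and -0.56 in R5 over the members, -1.22 and -1.02 over the sustained lost REs, and 0.06 and 0.04 over all eligible REs. By edgeR's quasi-likelihood test over all REs, 619 of 708 members (87.4%) and 7.43% of all REs were called lower at 3 h, with 0.912% of all REs higher, which the selection fixed. Over the same 3 h in WT cells the members' medians were -0.07 in R4 and 0.15 in R5. The selection applied to WT cells in place of tagged cells found 11 REs, and the selection with all signs turned found 600.

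To see how far the 3 h loss carried to libraries that had not chosen an RE, the thresholds were applied to 1 differentiation and the other was read. The 1863 REs chosen in R4 had a median 3 h difference of -0.53 there and -0.22 in R5, where 81.6% were below 0 and 24.2% reached -0.4, against 40.5% and 10.3% of all 91386 REs with the vehicle level in R4. The 1819 REs chosen in R5 had medians of -0.51 there and -0.31 in R4, where 78.5% were below 0 and 41.7% reached -0.4, against 40.7% and 12.2% of all 96748. The sustained lost REs chosen in the same way carried over more fully, with medians of -0.86 in R5 and -1.16 in R4 and with 83.5% and 93.9% reaching -0.4. In the unused differentiation, the transient REs thus kept the direction in most cases and a smaller part of the size. In WT cells 0.644% (R5) and 7.48% (R4) of them reached -0.4, against 3.59% and 2.39% of all REs with the vehicle level. Below 0 in WT cells were 23.1% (R5) and 61% (R4), against 39.1% and 52.9%. The WT shares were thus below those of all REs in R5 and above them in R4.

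At 24 h the members in tagged cells lay between vehicle and their 3 h level. The median difference between 24 h and vehicle was -0.24 in R4 and -0.45 in R5. Over the same 24 h in WT cells it was 0.20 and 0.01, against 0.02 and 0.003 over the eligible REs. In tagged cells 511 members (72.2%) were higher at 24 h than at 3 h in both differentiations, against 8.81% of the sustained lost REs. The medians of the sustained lost REs at 24 h were -1.42 and -1.21. For 294 members (41.5%) the mean 24 h difference was less than 0.5 of the 3 h difference in size, which was so for 12 sustained lost REs (0.19%). Still at -0.4 or less in both differentiations were 162 members (22.9%), with some of the 294 among them, and 9 members were above 0 in both. By edgeR, 266 members (37.6%) were called lower at 24 h than with vehicle and none higher, beside 9.93% lower and 4.7% higher over all REs. This comparison shares its vehicle libraries with the selection and carries no weight as a test. The 3 h libraries chose the members for low values, and the sustained lost REs were chosen by their 48 h values. The counts of a rise from 3 h to 24 h were thus partly set by the selection and carry no weight as a test either.

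The comparison of tagged with WT cells at 24 h used no library of the selection. With differentiation as a covariate, 236 members (33.3%) were lower in tagged cells and 8 (1.13%) higher by edgeR at a Benjamini-Hochberg adjusted p under 0.05, beside 9.4% and 6.88% of all REs, with a median log2 fold change of -0.36 over the members, -1.69 over the sustained lost REs and 0.04 over all REs. Each group held 2 samples, and the calls fell to 64 lower and 2 higher with DESeq2. With no replicate block they fell to 0 in either direction, where 99 were lower and 1 higher at an unadjusted p under 0.05. The shares over all REs in these fits are not given, so the counts show only how the calls depend on the fit. The difference between tagged and WT cells had a median of -0.58 in R4 and -0.40 in R5 at 3 h, in libraries of the selection. At 24 h it was -0.43 and -0.17. With vehicle it was 0.02 in R4 and 0.32 in R5, so the tagged R5 vehicle library was above its WT counterpart at the members before treatment, with 11.2% of them below it, and the tagged vehicle libraries were part of the selection.

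The libraries of the 4 intermediate doses at 48 h were also not used by the selection, and the members showed little change across them. The selection did use the untreated and highest-dose libraries of the same 7 replicates, and these doses lie between those. Members were kept for not being lower at the highest dose, and sustained lost REs were chosen for being lower there. The contrast between both sets was thus partly set by the selection and carries no weight as a test. The median difference from 0.5 nM over the members was -0.02 ± 0.04 at 1.6 nM, -0.04 ± 0.07 at 5 nM and 0.01 ± 0.08 at 16 nM (mean ± SD of the per-replicate medians, n = 7). At 16 nM it lay between -0.11 and 0.13 in single replicates. The sustained lost REs fell by 0.14 ± 0.08, 0.50 ± 0.10 and 0.76 ± 0.18 at these doses, and their 16 nM values, between -0.97 and -0.48, did not overlap those of the members. The eligible REs had a mean of 0.01 ± 0.01 at 16 nM. In the plot of these doses the members lie with the eligible REs.

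**Figure D2:**
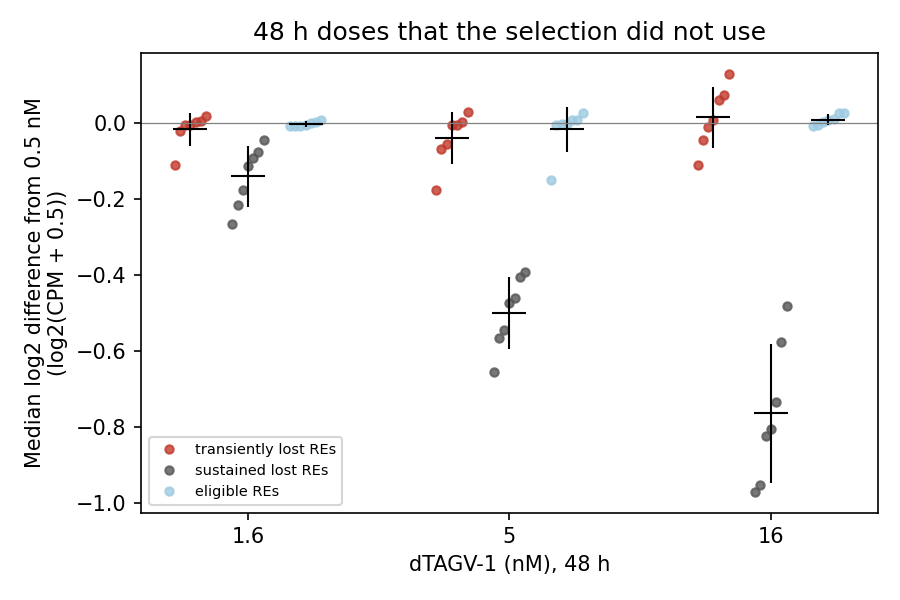
Median difference from 0.5 nM on the log2(CPM + 0.5) scale at 1.6, 5 and 16 nM dTAGV-1 (48 h, tagged cells) over the transiently lost, the sustained lost and all eligible REs; points are the 7 replicates, bars mean ± SD. At 16 nM the transiently lost REs lie between -0.11 and 0.13 and the sustained lost REs between -0.97 and -0.48.

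By edgeR with differentiation as a covariate, 9 members (1.27%) were lower and 26 (3.67%) higher at 16 nM than at 0.5 nM at an adjusted p under 0.05, beside 8.15% and 5.45% of all REs, while 5922 sustained lost REs (93.8%) were lower and none higher. The median log2 fold change was -0.02 over the members (middle 50% of members -0.15 to 0.12) and 0.02 over all REs. With each replicate (clone and differentiation) as a block, as the pairing allows, the counts were 38 lower and 75 higher, beside 11.7% and 10.5% of all REs. At 5 nM 4 members were lower and 4 higher (0.565% each), beside 3.89% and 0.509% of all REs, and 4387 sustained lost REs (69.5%) were lower. With the replicate block these were 13 and 8 members, for which the share over all REs is not given. Without S9CC47_R6, whose 5 nM library stood apart, 19 members were lower and 14 higher at 5 nM, beside 6.66% and 3.76% of all REs. Without any 1 replicate the members lower and higher ranged from 2 (without S9CC47_R5) to 34 and from 20 to 44 (both highest without S9CC13_R6) at 16 nM, and at 5 nM the lowest counts were 0 lower (without S9CC47_R8) and 0 higher (without S9CC47_R5). With no batch term none were called at either dose. Apart from the 5 nM fit without S9CC47_R6, the shares over all REs without 1 replicate are not given. Those counts thus show only how the calls depend on the fit. In the fits with the covariate and without S9CC47_R6, the share of members called lower at 5 nM stayed below that of all REs. The selection at the highest dose partly set this share and the calls of both sets at 5 and 16 nM.

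In WT cells at 48 h, 500 nM dTAGV-1 changed no member by edgeR (0 lower, 0 higher, beside 0.145% and 0.158% of all REs) or by DESeq2. At an unadjusted p under 0.05, 19 members (2.68%) were lower and 67 (9.46%) higher, beside 5.07% and 4.76% of the eligible REs. The median log2 fold change was 0.06 against -0.01 over all REs. In tagged cells the comparison of 500 with 0 nM, which the selection used, called 2 members lower and 52 higher, beside 13.9% and 10.2% of all REs. The mean 48 h difference was above 0 for 365 members, at 0.4 or more for 34, above 0 in all 7 replicates for 53 and below 0 in all 7 for 1. Over the replicates, the median of the members ranged from -0.05 in S9CC47_R8 to 0.22 in S9CC13_R13.

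The 8 members with the lowest mean 3 h difference were chosen for that value. The lowest was chr6:160960875-160961375, in an intron of a non-coding transcript 30352 bp from the nearest protein-coding start, that of MAP3K4, a kinase of stress signalling. In tagged cells it had 6.50 CPM in R4 and 5.69 CPM in R5 with vehicle, 1.81 and 1.67 CPM at 3 h, and 2.85 and 1.98 CPM at 24 h. In WT cells the same libraries gave 11.9 and 5.19 CPM with vehicle, 11.6 and 5.29 CPM at 3 h, and 12.1 and 4.99 CPM at 24 h. Tagged cells at 24 h were below every WT library of the time course, and the difference at 24 h was -1.78 ± 0.19 (log2 fold change ± SE, edgeR adjusted p = 1.2e-18). At 48 h the 7 tagged replicates had a lowest, median and highest value of 0.859, 2.69 and 3.66 CPM at 0 nM and of 0.917, 1.83 and 3.24 CPM at 500 nM, so that both groups overlapped and lay below vehicle in the time course.

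The member chr5:9453952-9454452 lies in an intron of SEMA5A, which encodes a transmembrane semaphorin of axon guidance. It had 8.12 and 10.7 CPM with vehicle, 2.02 and 6.08 CPM at 3 h and 4.84 and 5.77 CPM at 24 h in tagged R4 and R5. In WT cells it had 7.30 and 7.31 CPM with vehicle, 6.02 and 10.1 CPM at 3 h and 10.1 and 8.72 CPM at 24 h. Tagged cells were lower at 24 h in both differentiations (log2 fold change -0.87 ± 0.17, edgeR adjusted p = 8.4e-06). At 48 h the values were 6.17, 8.93 and 10.5 CPM at 0 nM and 6.89, 9.17 and 18.3 CPM at 500 nM (lowest, median, highest of 7), so that both groups overlapped around the vehicle level of the time course. At the other 7 of these 8 members the median at 0 nM and 48 h was below both tagged vehicle libraries.

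Next in this group were chr18:42249430-42249930, in an intron of LINC00907, with a 24 h difference between tagged and WT cells of -1.50 ± 0.24 (adjusted p = 5.9e-09), and chr1:58727333-58727833, 27243 bp from the start of MYSM1, a histone deubiquitinase, with -1.24 ± 0.23 (adjusted p = 1.8e-06). The member chr3:147962446-147963140, 553081 bp from ZIC1, a neural crest and neural plate factor, had -1.01 ± 0.16 (adjusted p = 1.9e-08). The first of these was also lower at 16 than at 0.5 nM (-0.62 ± 0.19, adjusted p = 0.034). The member chr12:101051994-101052494, in an intron of ANO4, was not called at 24 h (0.39 ± 0.20, adjusted p = 0.20): its tagged libraries had 2.88 and 10.9 CPM with vehicle against 1.84 and 3.92 CPM in WT cells. The other 2, chr8:87846727-87847227 and chr8:111999496-111999996, were lower in tagged cells at 24 h by -0.57 ± 0.15 (adjusted p = 0.0021) and -0.65 ± 0.19 (adjusted p = 0.0055). Of the 8, 7 were thus called lower in tagged cells at 24 h, and 1 was called at 16 nM.

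The 4 members with the highest vehicle level had small differences. The highest, chr3:128167407-128168714, lies in an intron of EEFSEC, a selenocysteine elongation factor, with RUVBL1 as the nearest coding start, and had 59.4 and 53.0 CPM with vehicle, 38.8 and 36.7 CPM at 3 h and 45.2 and 38.7 CPM at 24 h in tagged cells. The WT libraries of the time course lay between 47.1 and 63.4 CPM, and those at 48 h between 37.3 and 68.2 CPM. At 48 h the tagged libraries spread from 27.7 to 61.0 CPM at 0 nM and from 26.7 to 58 CPM at 500 nM, and the change at 16 nM was 0.02 ± 0.06 (adjusted p = 0.92). The others were chr10:44056163-44056663, 328380 bp from CXCL12, a chemokine, chr2:64144370-64144870, over the promoter of PELI1, a ubiquitin ligase, and chr20:47035029-47035529, in an intron of EYA2, a co-activator of homeobox factors. Of these 4, the REs at RUVBL1 (-0.42 ± 0.14, adjusted p = 0.018) and PELI1 (-0.47 ± 0.14, adjusted p = 0.0064) were lower in tagged than WT cells at 24 h. The values at 24 h for CXCL12 (-0.27 ± 0.14, adjusted p = 0.20) and EYA2 (-0.27 ± 0.14, adjusted p = 0.22) missed the threshold.

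Of the 26 members higher at 16 nM, the smallest p-value was at chr9:81558150-81558650, 54871 bp from TLE1, a Groucho-type co-repressor. At 48 h it had 2.06, 2.26 and 4.18 CPM at 0.5 nM, 1.87, 2.37 and 5.86 CPM at 5 nM and 2.64, 3.95 and 9.13 CPM at 16 nM (lowest, median, highest of 7). The groups at 0.5 and 16 nM overlapped, and with differentiation as a covariate the difference was 0.81 ± 0.13 (adjusted p = 0.00023). In the time course it had 2.38 and 6.73 CPM with vehicle, 1.26 and 4.28 CPM at 3 h and 3.13 and 5.43 CPM at 24 h in tagged R4 and R5. It is the member with the highest 48 h difference between 500 and 0 nM (1.00), a value the selection only bounded from below.

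The others of this kind were chr4:13701759-13702259, in an intron of LINC01182 (0.82 ± 0.13, adjusted p = 0.00027), chr1:242435214-242435714, in an intron of PLD5, a phospholipase D family member (0.51 ± 0.09, adjusted p = 0.00052), and chr9:70134741-70135534, in an intron of MAMDC2 (0.39 ± 0.08, adjusted p = 0.0013). At 24 h none of these 4 was called between tagged and WT cells. The 26 had a median 24 h difference from vehicle of -0.10, against -0.34 over all members, and a median 48 h difference between 500 and 0 nM of 0.45, and 4 of them were also higher at 5 nM.

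The 9 members lower at 16 nM had a median 3 h difference of -0.76, a 24 h difference of -0.75 and a 48 h difference of -0.13, near the threshold. The smallest p-value was at chr5:81626418-81626918, in an intron of SSBP2, which encodes a single-stranded DNA binding protein, with 9.16, 14.5 and 17.2 CPM at 0.5 nM and 7.75, 10.5 and 13.6 CPM at 16 nM (-0.35 ± 0.08, adjusted p = 0.0055). In the time course its tagged libraries had 20.4 and 33.0 CPM with vehicle, 13 and 22.5 CPM at 3 h and 17.2 and 26.3 CPM at 24 h. Its tagged libraries at 48 h were all below 20 CPM, at every dose. The others were chr2:208698063-208698988, in an intron of PTH2R, a parathyroid hormone family receptor (-0.40 ± 0.10, adjusted p = 0.013), chr7:20853170-20853670, 66284 bp from SP8, a zinc finger factor (-0.58 ± 0.16, adjusted p = 0.018), and chr4:169992978-169993964, over an exon of a gene without a symbol that overlaps MFAP3L (-0.35 ± 0.10, adjusted p = 0.029). None of the 9 was also called lower at 5 nM.

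**Figure D3:**
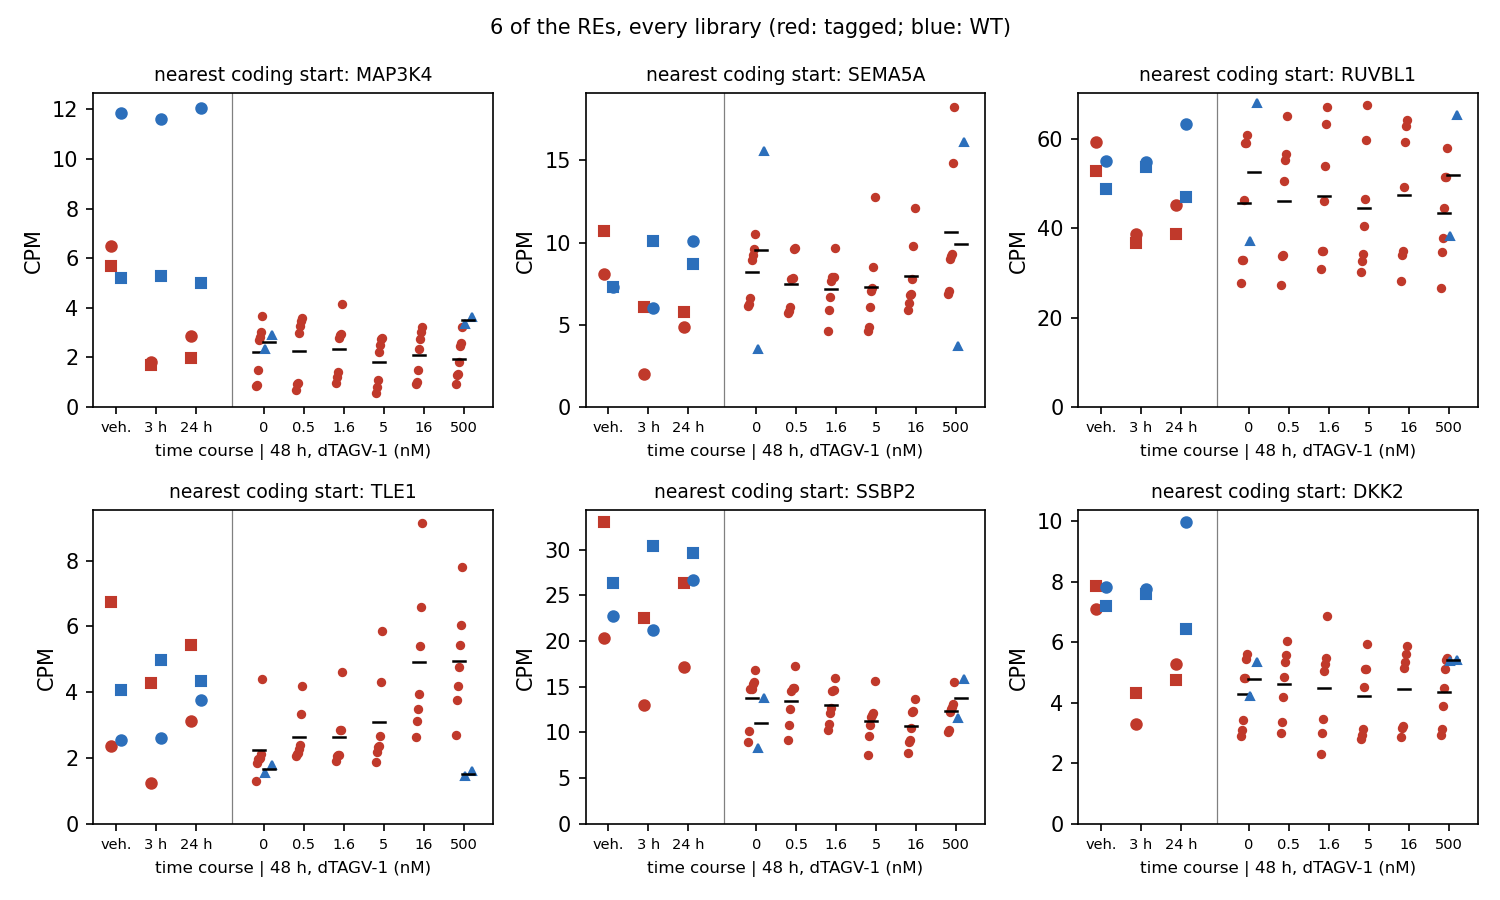
CPM in every library at 6 of the REs, named by the nearest protein-coding start; each panel shows the time course (circles R4, squares R5) and, right of the grey line, the 48 h experiment by dTAGV-1 concentration (nM; circles tagged, triangles WT), with tagged libraries in red, WT libraries in blue and black bars at 48 h group means. At the RE near MAP3K4 the tagged libraries fall from 6.50 and 5.69 CPM to 1.81 and 1.67 CPM at 3 h, and at the RE near TLE1 the median of 7 tagged libraries is 2.26 CPM at 0.5 nM and 3.95 CPM at 16 nM.

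The member with a facing pair of SOX cores printed above was low in level. At chr3:182440029-182440529, an intergenic RE 352974 bp from ATP11B, tagged libraries had 1.90 and 2.45 CPM with vehicle, 0.976 and 1.26 CPM at 3 h and 1.65 and 1.41 CPM at 24 h. The change at 16 nM was 0.18 ± 0.16 (adjusted p = 0.60). The sustained lost REs with a pair shown above, near PLEKHB1 and SLC39A11, had mean vehicle levels of 59.5 and 22.4 CPM, 3 h differences of -3.61 and -2.20 and 48 h differences of -4.23 and -3.54.

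A facing pair was found in 0.282% of members, 2.93% of the sustained lost REs and 0.263% of the eligible REs. At least 1 core was about as common in members (78.2%) as in sustained lost REs (79.3%), and was found in 49.9% of the eligible REs. The mean number of cores was 1.39, 1.43 and 0.759 per RE. In the central 200 bp the share with a core was 46.2% in members, 53.5% in sustained lost REs and 20.9% in eligible REs. REs are cut to a median width of 501 bp around a summit, and the cores of the members were spread more widely around it. In the 577 members of exactly this width, 15.3 and 12 matches per 100 REs fell in the bins of 50 bp left and right of the centre, against 21.7 and 23 in sustained lost REs and 6.15 and 6.29 in eligible REs. The members' highest bins were 16.8 (50 to 100 bp to the left) and 17 (50 to 100 bp to the right). These held 97 and 98 matches, against 88 and 69 left and right of the centre, and the difference was not tested.

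The AP-1 site, bound by FOS and JUN factors, was more frequent in members than in both other sets. It was found in 18.4% of members, 9.77% of sustained lost REs and 10.4% of eligible REs. Its matches in members lay at the centre, with 4.85 and 4.16 per 100 REs in the central bins against 1.24 and 1.13 in sustained lost and 1.55 and 1.46 in eligible REs. Of the members, 103 (14.5%) held both a SOX core and an AP-1 site, within 50 bp of each other in 33, and 7.87% of the sustained lost REs held both. Members with and without an AP-1 site had like 3 h differences (medians -0.62 and -0.60) and 24 h differences (-0.33 and -0.35), and so had members with and without a SOX core (3 h -0.61 and -0.59). The 3 h difference chose the members, so the likeness at 3 h was partly set by the selection. Over the sustained lost REs the 3 h medians were -1.16 with and -0.98 without a SOX core, and -1.12 with and without an AP-1 site. The 3 members printed above with both motifs had 3 h differences of -1.18 and -1.0 (CDC14C), -0.83 and -0.75 (PPP1R12A), and -1.02 and -0.53 (ADGRL2) in R4 and R5. The plot of motif positions shows both profiles.

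**Figure D4:**
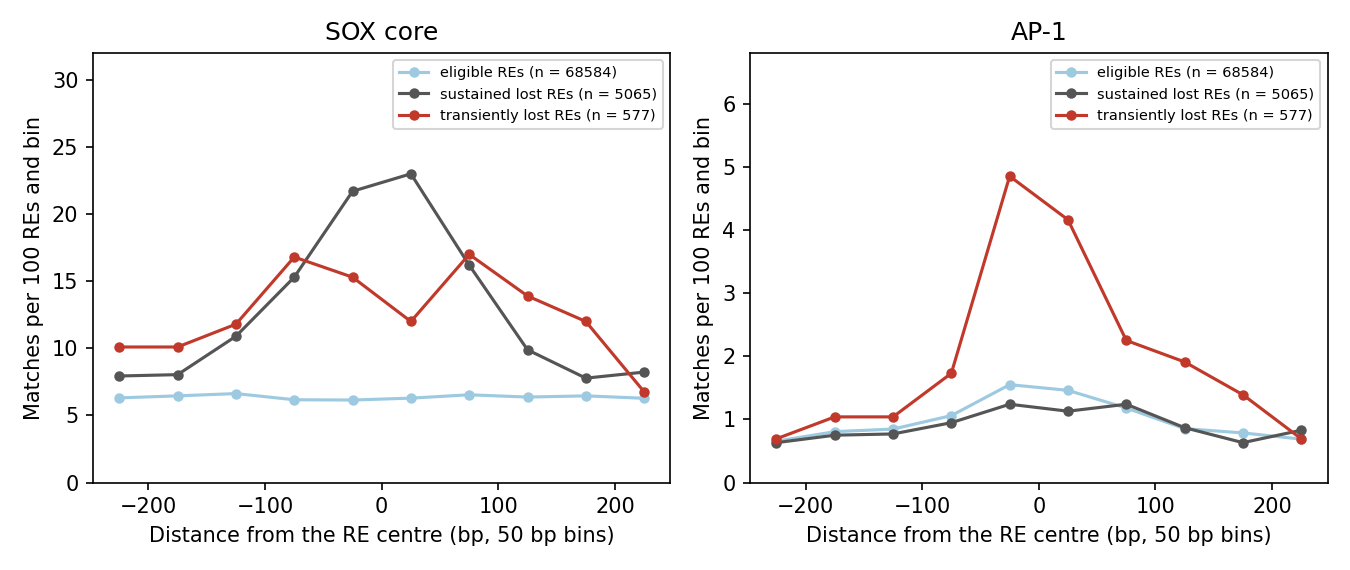
SOX core (left) and AP-1 (right) matches per 100 REs in bins of 50 bp by distance from the RE centre, on both strands, for transiently lost (n = 577), sustained lost (n = 5065) and eligible REs (n = 68584) that are 501 bp wide. SOX cores peak at the centre in sustained lost REs (21.7 and 23) and are spread more widely in transiently lost REs (highest bins 16.8 and 17). AP-1 sites peak at the centre in transiently lost REs (4.85 and 4.16).

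Other motifs, matched as letters on both strands, were compared as shares of members, sustained lost and eligible REs. The homeobox motif TAATTA was found in 24.3%, 16.9% and 14.1%, the ZEB-type E-box CAGGTG in 19.5%, 32.4% and 38.7%, the E-box CATCTG in 46.5%, 51.5% and 44.8%, and the TFAP2 motif GCCNNNGGC in 17.8%, 21% and 31.5%. The NR2F site AGGTCA was found in 46.2%, 41.1% and 37.7%, the TEAD motif GGAATG in 35%, 36.4% and 33.9%, the RUNX motif TGTGGT in 35.2%, 34% and 30.9%, and the forkhead motif GTAAACA in 9.6%, 9.06% and 7.66%. The ETS motif CCGGAA was found in 4.66%, 6.21% and 14.5%, the CCAAT box in 61.7%, 54.1% and 52.4%, and a CTCF motif in 0.989%, 2.12% and 7.96%. A palindromic NFI motif was found in no member.

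Base composition moved with these shares, as the median GC content was 42.1% in members, 45.3% in sustained lost REs and 50.3% in eligible REs. Within distal 501 bp REs of 42 to 48% GC, AP-1 sites were in 20.8% of 207 members, 9.12% of sustained lost and 10.8% of eligible REs. In the same band SOX cores in the central 200 bp were in 47.3%, 58.3% and 26.1%, and TAATTA in 14%, 15% and 16.1%. At 36 to 42% GC the AP-1 shares were 15.5%, 8.87% and 9.12%, the central SOX core shares 45.4%, 59.4% and 30.6%, and the TAATTA shares 26.6%, 22.8% and 23.2%. The order of the AP-1 and central SOX core shares was thus the same in both these bands, where the homeobox shares were close to each other. At 30 to 36% GC, with 63 members, the AP-1 shares were 7.94%, 6.06% and 8.74%. The central SOX core shares there were 60.3%, 68% and 33.3%, and the TAATTA shares 42.9%, 30.3% and 34.7%. At 48 to 54% GC, with 57 members, the AP-1 shares were 19.3%, 8.22% and 10.4%. The central SOX core shares there were 26.3%, 54.9% and 21.4%, and the TAATTA shares 12.3%, 7.8% and 9.57%. A SOX core anywhere in the RE was in 56.1%, 75.1% and 47.3% in that band.

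The members were distal. Of the 708, 37 (5.23%) lay within 1000 bp of an annotated transcript start, 37 overlapped another exon, 407 (57.5%) lay in introns and 227 (32.1%) between genes. Promoter shares were 12.1% in sustained lost and 32% in eligible REs. The median distance to the nearest protein-coding start was 75556 bp, against 48116 bp and 20159 bp, and 58.1% of members, 67.1% of sustained lost and 78.6% of eligible REs lay within 100 kb of one. The members spread over 23 chromosomes and had 631 different genes as the nearest coding start, 49 of them with 2 and 14 with 3 members. The 14 included BMPR1B, a BMP receptor, HAS2, a hyaluronan synthase, SEMA6A, a semaphorin, and PRICKLE1, a planar cell polarity protein. A sustained lost RE lay within 50 kb of 206 members (29.1%), against 25.7% of the eligible REs outside the sustained set.

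Low REs held most members. With a vehicle level of 2 to 4 CPM, 353 of 35776 eligible REs were members, and 212 of 26792 were at 4 to 8 CPM, 94 of 17252 at 8 to 16 CPM and 49 of 15418 at 16 CPM or more. Of the REs that passed the vehicle, 3 h and WT thresholds, the transient share was 13.9%, 9.09%, 5.69% and 3.28% in these bins. The median 3 h difference hardly moved over the bins (-0.61, -0.64, -0.58 and -0.56), nor did the share with a SOX core (78.8%, 77.4%, 78.7% and 77.6%). The counting error is larger at low levels, and its part in this trend was not tested. A median member had 78 and 161 counts in the tagged 3 h libraries and 53 to 149 counts in the 500 nM libraries at 48 h.

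The shares of members near genes of named groups lay on both sides of that over all eligible REs, each from few members. Of 42 crest and facial transcription factors, with 850 eligible REs nearest to their starts, 4 members (0.471%) lay near NR2F1 (2), SNAI2 and ZEB2, against 0.743% of all eligible REs, and 69 (8.12%) were sustained lost REs. The RE chr8:48863255-48864241, 57188 bp from SNAI2, a repressor of epithelial genes in migrating crest, was lower in tagged than WT cells at 24 h (-1.53 ± 0.20, adjusted p = 3.9e-13), as was chr5:93292023-93292523, 290699 bp from the nuclear receptor gene NR2F1 (-0.95 ± 0.23, adjusted p = 0.00062). Near the SOX family (321 eligible REs) there were 2 members. That in an intron of SOX5, chr12:24045903-24046403, a partner of SOX9 in cartilage, had -0.49 ± 0.19 at 24 h (adjusted p = 0.051), and that near SOX1, chr13:111894088-111894588, had -0.09 ± 0.18 (adjusted p = 0.83).

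Near cartilage genes (147 eligible REs) 2 members (1.36%) were found. The RE chr6:45607823-45608323, in an intron of RUNX2, the osteoblast factor, had -1.18 ± 0.25 (adjusted p = 2.5e-05) between tagged and WT cells at 24 h, and chr15:88833716-88834216, in an intron of ACAN, the main cartilage proteoglycan, had -0.72 ± 0.19 (adjusted p = 0.0021). With vehicle, the ACAN RE had 2.17 and 6.78 CPM in tagged R4 and R5, against 3.39 and 5.37 CPM in WT cells. At 24 h its tagged libraries had 2.78 and 3.61 CPM. Against vehicle it was not called at 24 h in tagged cells (-0.35 ± 0.23, edgeR adjusted p = 0.38). Near immediate early and ERK feedback genes (473 eligible REs) 5 members (1.06%) lay, near SPRED1, DUSP6, KLF6 and, for 2, SPRY2. Of these, chr15:38176147-38176647, 76189 bp from SPRED1, and chr13:80116056-80116556, 223103 bp from SPRY2, both coding for ERK pathway inhibitors, missed the threshold at 24 h (-0.30 ± 0.21, adjusted p = 0.43; 0.04 ± 0.20, adjusted p = 0.95).

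Near BMP and TGF-beta genes (499 eligible REs) 7 members (1.4%) were found, 3 at BMPR1B, 2 at BMP2 and 1 each at ID4 and BMPR1A. The RE chr4:94819834-94821210, in an intron of BMPR1B, had -0.60 ± 0.17 at 24 h (adjusted p = 0.0056), and chr6:19311835-19313050, 524320 bp from ID4, an inhibitor of bHLH factors, had -0.85 ± 0.17 (adjusted p = 5.3e-06). Of 4 members near WNT genes (0.815%), at DKK2, SFRP1, DKK1 and TCF7L2, chr4:107171772-107172272, in an intron of the WNT antagonist gene DKK2, had -0.72 ± 0.18 (adjusted p = 0.00054) and chr8:41393443-41393943, near the antagonist gene SFRP1, -0.45 ± 0.20 (adjusted p = 0.13).

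Of 5 members near guidance genes (0.565%), chr2:205358393-205358893, whose nearest coding start is that of the neuropilin gene NRP2, had -1.27 ± 0.24 (adjusted p = 3.4e-06), and chr7:84025276-84025776, in an intron of SEMA3A, a secreted repellent, had -0.62 ± 0.16 (adjusted p = 0.0010). Of 7 near matrix and adhesion genes (1.48%), chr3:37693649-37694149, over an exon of the antisense gene ITGA9-AS1 within the integrin gene ITGA9, had -0.42 ± 0.23 (adjusted p = 0.23) and chr16:64448022-64448522, 539812 bp from the cadherin gene CDH11, -0.56 ± 0.17 (adjusted p = 0.0068). Against vehicle the CDH11 RE was not called at 24 h in tagged cells (-0.35 ± 0.19, edgeR adjusted p = 0.26). No member lay nearest to a gene of the Schwann cell and melanocyte list, among 63 eligible REs of which 12 were sustained lost. No member of any list was called at 16 nM in either direction. Over all members 1.27% were lower and 3.67% higher, beside 8.15% and 5.45% of all REs. With so few members per list, the lack of calls says nothing about members near these genes. The REs named for the lists were chosen by their 3 h difference.

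REs just across a threshold had values close to those inside. For the 3 h difference in R4, the nearest member had -0.4005 and the nearest RE outside -0.3997, for R5 -0.4001 and -0.3989, for WT -0.198 and -0.206, for the 48 h difference -0.1497 and -0.1506, and for the vehicle level 2.001 and 1.991 CPM. The number of REs that failed on 1 threshold alone was 334 for the vehicle level, 762 and 1799 for the 3 h difference in R4 and R5, 30 for WT and 7318 for the 48 h difference.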

How the data were processed

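ATAC-seq was performed on 58 samples. Per the study's methods, the authors trimmed reads, aligned them to hg38 with Bowtie2 2.4.1, removed duplicates, mitochondrial reads and reads of mapping quality under 20 (SAMtools 1.10), called summits with MACS2 2.2.7.1, kept merged summits found in at least 3 line and differentiation instances, extended them by 250 bp and merged overlaps. The submitters' processing notes also name deepTools 3.5.0 and bedtools. The deposited table holds raw read counts per RE, without normalization; no column was left unmapped (0). Merging across samples sets 1 region per RE for all libraries, so a summit that moves between conditions is not seen.

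The members and all lists were chosen with earlier results of these data known. Counts over all 151457 REs were tested with edgeR 4.0.16 (R 4.3.3; TMM, quasi-likelihood F test, Benjamini-Hochberg over all REs, differentiation batch as covariate, no filter on low counts); DESeq2 1.42.0 was an alternative. Fold changes of the rule are on the log2(CPM + 0.5) scale, which understates low REs. Only the fit of 16 against 0.5 nM was run on simulated counts, which held no difference between differentiations. That run thus checks neither the batch covariate nor the other fits. Replicate numbers pair samples because the labels give the same clone and differentiation. Deviations from the group mean had correlations within a replicate of 0.79 to 0.93 between 16 and 0.5 nM (46202 REs of 5 CPM or more). Between 5 and 0.5 nM these were 0.067, in S9CC47_R6, to 0.96. Between different replicates the mean correlations were -0.14 and -0.12, and the highest 0.71 and 0.73. Differentiations are separate cultures of the same lines, so p-values measure at most the spread between cultures. For tagged against WT cells at 24 h, with 2 samples per group, edgeR took this spread mainly from all REs together. A small p-value or SE there does not measure the spread of that single RE between cultures. No 2 libraries of a group agreed within sampling noise (134 pairs, lowest reduced chi-square 2.60).

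REs were annotated with GENCODE 44 on hg38 (promoter: within 1000 bp of any transcript start) and motifs were matched as letters on both strands of that genome. Named REs are the 8 members with the lowest mean 3 h difference, the 4 with the highest vehicle level, the 4 lower and 4 higher ones at 16 nM with the smallest p, those with a facing pair (1 result is not reported here), 2 per gene list with the lowest 3 h difference, and those nearest each threshold.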

Additional observations from a re-analysis of the deposited data

Results flagged for a closer look

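In groups of 7 libraries, 15 of 242 sets of values held a library whose gap to the nearest other was above Dixon's limit, where chance gives about 1 in 20. Library totals (in M, 1e+06 counts) were high for S9CC47_R8 at 0 nM (64.8 M), 0.5 nM (62.5 M) and 1.6 nM (67.3 M). The median change over the members against 0 nM was -0.18 in S9CC47_R6 at 5 nM, the library that stood apart above, and 0.15 in S9CC47_R5 at 1.6 nM, and the median from 0.5 to 1.6 nM was -0.11 in S9CC47_R8.

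Of single members, S9CC47_R5 was high at 0 nM for the RE near MYSM1 (2.79 CPM) and for the RE near TLE1 (4.41 CPM), at 1.6 nM for the RE near TLE1 (4.61 CPM), at 5 nM for the RE in SOX5 (2.87 CPM) and at 16 nM for the RE in RUNX2 (1.78 CPM). S9CC13_R10 was high at 0 nM for the RE in MAMDC2 (27.4 CPM) and at 5 nM for the RE near SPRED1 (3.37 CPM), S9CC47_R6 at 500 nM for the RE over MFAP3L (6.83 CPM), and S9CC47_R8 was low at 16 nM for the RE near MYSM1 (0.657 CPM).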

How the results depend on the processing

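The number of members was 568 and 758 with pseudocounts of 1 and 0.25 CPM, 535 with TMM library sizes, all 535 among the 708, and 618 to 775 without 1 replicate of the 48 h mean. With the replicate block, the members lower and higher at 16 nM were 38 and 75 and at 5 nM 13 and 8, and with all 28 samples of the 4 doses those at 16 nM were 18 and 42. Each of these fits held all the members called with differentiation as the covariate (9 and 26; 4 and 4). With no batch term the edgeR counts were 0 in each case, with 14 and 17 at an unadjusted p under 0.05 at 16 nM and 9 and 1 at 5 nM, and DESeq2 gave 7 and 29 at 16 nM. Without 1 replicate, 2 to 34 members were lower and 20 to 44 higher at 16 nM. The counts at 16 nM that moved over 1.5 times were 34 and 44 without S9CC13_R6, 24 and 40 without S9CC47_R6, and, for lower, 2 without S9CC47_R5 and 3 without S9CC47_R8. At 5 nM the ranges were 0 to 19 lower and 0 to 14 higher. Without S9CC47_R6 they were 19 and 14, without S9CC47_R8 0 and 1 (27 and 21 at an unadjusted p under 0.05), without S9CC47_R5 2 and 0 (24 and 17), without S9CC13_R10 2 and 1, and without S9CC13_R14 1 and 1, while 10 were lower without S9CC13_R6 and 1 was higher without S9CC13_R13. In tagged against WT cells at 24 h, DESeq2 gave 64 lower and 2 higher, all among the edgeR calls, and edgeR with no replicate block 0 and 0, with 99 and 1 at an unadjusted p under 0.05. With 2 samples per group, leaving out 1 there or in the WT 48 h comparison left no residual degrees of freedom and was not run. The cause of these shifts was not tested. Shares over all REs are not given beside these counts, which thus show only how the calls depend on the fit. The share of members with a SOX core was 46.2% in the central 200 bp.

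Of the named REs, 9 had a change at 16 nM that turned sign under an alternative, none of them called. Without 1 replicate the lowest and highest log2 changes were -0.163 and 0.083 near MAP3K4, -0.009 and 0.0858 in SEMA5A, -0.196 and 0.0242 near SLC5A8, -0.0059 and 0.0492 near RUVBL1, -0.0325 and 0.0084 near CXCL12 (0.0023 without S9CC47_R5), -0.162 and 0.0147 in RUNX2, -0.008 and 0.139 in ACAN, -0.0652 and 0.0659 near SPRED1, and -0.0316 and 0.0499 near ID4. With no batch term the change was -0.0234 in ACAN and 0.0056 near ID4, and with the replicate block 0.0068 near SPRED1 and 0.0012 near ID4. Near ID4 it was 0.0016 with all 28 samples, 0.0046 with DESeq2 and 0.0043 with RLE normalization. Low counts limit single members most, since a median member had 53 to 177 counts in the tagged 48 h libraries at 5, 16 and 500 nM.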
